A study of Drosophila melanogaster with 5 samples.

Results

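Rab GTPases and Vps proteins, which direct vesicles through endosomes, phagosomes and lysosomes, were followed in the blood cells (hemocytes) of Drosophila melanogaster larvae on 5 Affymetrix arrays. A gene was a member if a probe set named it alone and its symbol was Rab or Vps followed directly by a digit, or RabX followed by a digit. This gave 52 genes on 53 probe sets, out of 11982 genes named in the same way on the array. They were 22 Rab GTPase genes, 27 Vps genes and 3 genes for regulators named after Rab3 (Rab3-GEF, Rab3-GAP and Rab3GAP1). Rab26 had several probe sets, which were averaged, and every other member rested on 1. Rab1, Rab4, Rab5, Rab6, Rab7, Rab8 and Rab11, of which Rab5 and Rab7 are the classical markers of early and late endosomes, are not analysed here.

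The arrays held hemocytes of the control strain W1118, of the loss-of-function line spen(GE10359), which carries a P-element in a UTR of split ends (spen), of the loss-of-function stocks labelled E(spl)rvl (BL199, Enhancer of split) and Su(H)l(417) (BL417, Suppressor of Hairless), and of the gain-of-function stock BL1564, labelled EGFR. The zygosity of the larvae and any balancer or second mutation in a stock are not given in the sources used here. All were larvae of the third instar, the last stage before pupation, and each array pooled the cells of 200 to 300 animals. Each pool yielded 1.0 to 1.3 µg of total RNA, the RNA was amplified in vitro, and the labelling started from 1 µg. With 1 array per genotype there was no replicate error, so no test was made, and higher and lower describe these 5 arrays only. In RNA from pooled cells, fewer cells of a type and less RNA per cell cannot be told apart.

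Values are log2 levels, so a difference of 1 is 2-fold. A probe set's level also depends on its own probes, so levels were compared between arrays and not between genes. Array medians ran from 4.46 to 4.54, and the highest Bacillus control probe set, for which the sample holds no target, reached 4.28 to 4.78. The main spen probe set stood at 4.90 on the spen array and at 9.14 to 10.75 on the others. The cell label was checked against markers. The plasmatocyte gene Hml stood at 13.68 to 14.38, and all 10 plasmatocyte markers were above the filter on all 5 arrays, with a mean level of 11.94 (spen) to 12.69 (EGFR). Of the 10, 8 lay below the control in spen and 8 above it in each other mutant. Nplp2 alone was past 2-fold, by −2.47 in spen and by 1.25 (EGFR) to 1.52 (E(spl)) in the others. Markers of other cells also moved with genotype. All 5 salivary gland markers were past 2-fold higher in spen (mean level 11.69, against 6.93 in the control), and the 5 muscle markers had a mean level of 7.71 in E(spl) and 8.07 in Su(H), against 5.35 in the control. The 7 lamellocyte markers had a mean level of 10.80 in Su(H) and 9.17 in the control. Their mean was 10.16 in EGFR, 9.94 in E(spl) and 9.42 in spen. In Su(H) 3 of the 7 were past 2-fold higher, by 2.84 (Drip) to 4.08 (atilla), and the other 4 differed by 0.08 to 0.36. The E(spl) array also had 3 past 2-fold higher, by 1.66 (ItgaPS4) to 2.64 (Drip), while betaTub60D differed by −1.79. The EGFR array had 2 past 2-fold higher, atilla by 2.32 and Drip by 2.33. The 4 fat body markers were all past 2-fold lower in EGFR (mean level 9.11, against 11.89 in the control) and lower in E(spl) (9.95). The 6 crystal cell markers had a mean level of 10.65 in the control, 9.38 in spen and 11.70 to 11.97 in the other mutants. In spen CG17109 differed by −5.52, PPO1 by −0.43 and PPO2 by −0.71, while CG7860 was higher by 0.53. In each of E(spl), Su(H) and EGFR, 3 of the 6 were past 2-fold higher (lz, peb and CG7860). The control level of lz (3.89) lay below the highest Bacillus control. CG17109 differed by −1.05 in EGFR. The 3′ probe sets of actin, eIF-4a and GAPDH exceeded their middle probe sets, a measure of RNA shortening, by a mean of 1.53 (control) to 2.51 log2 units (Su(H)), with E(spl) at 2.10. The part of these differences in the results below was not tested.

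Rab proteins are small GTPases that sit on the membrane of 1 kind of compartment in their GTP-bound form and recruit tethers, motors and enzymes to it. Vps genes carry the name of the yeast screen for vacuolar protein sorting. Many of their products work in fixed complexes. Retromer returns receptors from endosomes, ESCRT complexes bud cargo into multivesicular bodies, CORVET and HOPS tether early and late endosomes before fusion, and GARP and EARP tether vesicles at the Golgi and at recycling endosomes. Plasmatocytes, the main larval hemocytes, engulf bacteria and dying cells, and the phagosomes they form mature by fusing with endosomes and lysosomes.

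Most members were well above background. Of the 52, 46 reached the level filter of 4.5, the median of all levels, on all 5 arrays. Rab9Fb did so on the control array alone. Rab3 and Rab26, known from synaptic vesicles, and Rab3-GEF, RabX2 and RabX5 stayed below the highest Bacillus control on every array, so they have no measured difference. The plot of levels shows each member on the 5 arrays.

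**Figure D1:**
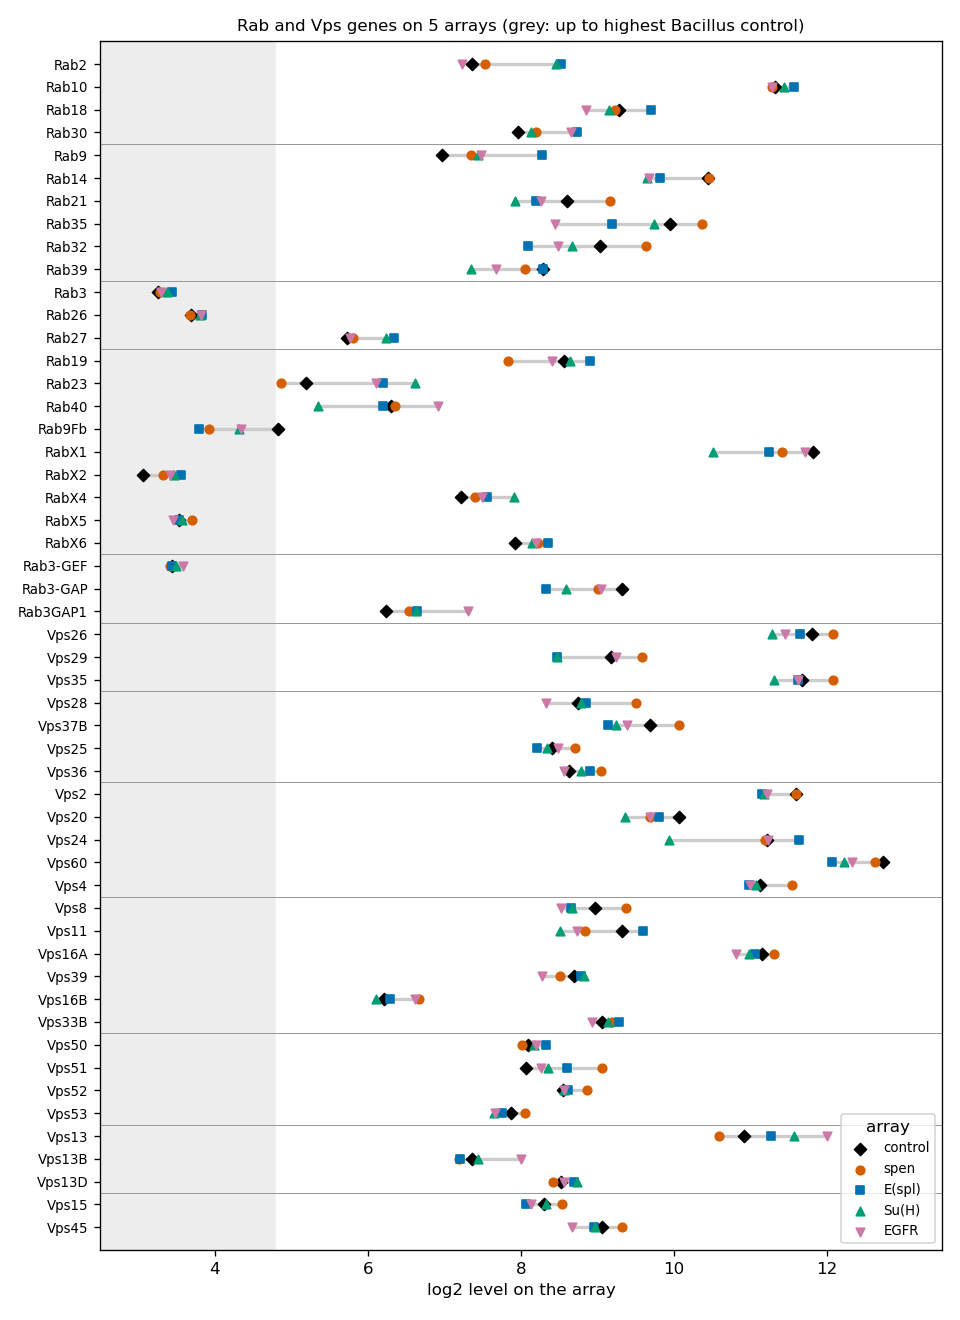
Log2 level of each of the 52 Rab and Vps genes (rows, grouped by role) on the 5 arrays (1 point per array). The grey band ends at the highest Bacillus control of any array (4.78), and Rab3, Rab26, Rab3-GEF, RabX2 and RabX5 lie wholly inside it.

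For the comparison with the control, 47 members reached the filter on at least 1 of both arrays. In spen, none of them was past 2-fold. Of all 8079 genes that passed the same filter 17.3% were, 2.7% higher and 14.6% lower. In E(spl), 3 were past 2-fold higher and 1 lower, together 8.51%. Of 8076 genes 21.9% were, 6.49% higher and 15.4% lower. In Su(H), 2 were higher and 2 lower, again 8.51%. Of 8139 genes 21.9% were, 6.98% higher and 14.9% lower. In EGFR, 2 were higher and 1 lower, 6.38%. Of 8017 genes 14.9% were, 4.37% higher and 10.5% lower. The members past 2-fold were therefore 9 different genes: Rab2, Rab9, Rab23, Rab35, Rab9Fb, RabX1, Rab3GAP1, Vps13 and Vps24. Over all genes, 31.9% were past 2-fold in at least 1 mutant.

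A gene that passes the filter only because 1 array is high must differ, and among the members Rab9Fb alone passed that way. Among genes at or above the filter on all 5 arrays, 0, 3, 4 and 3 of 46 members were past 2-fold in spen, E(spl), Su(H) and EGFR. The shares of all 6783 such genes were 12.6%, 16.9%, 17% and 12.4%. The nearest values outside the threshold were Vps51 at 0.99 in spen, Rab3-GAP at −0.99 in E(spl), Rab40 at −0.94 in Su(H) and Rab23 at 0.91 in EGFR. Those just within it were Rab23 at 1.01 in E(spl), Rab2 at 1.10 in Su(H) and Rab3GAP1 at 1.08 in EGFR.

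At the lower fold of 1.5, chosen after seeing the data, 5 of 47 members passed in spen, where 31.5% of all genes did. In E(spl) 12 passed (37.3% of all genes), in Su(H) 14 (38.9%) and in EGFR 10 (31.7%). Of these, 3 were higher in spen and 2 lower. The split was 5 higher and 7 lower for E(spl), 4 and 10 for Su(H), and 6 and 4 for EGFR. Above the control by any amount were 29 of 47 members in spen (53.7% of all genes), 23 for E(spl) (50.4%), 21 for Su(H) (47.4%) and 18 for EGFR (48.9%). The members' median difference was 0.17 for spen, −0.01 for E(spl), −0.09 for Su(H) and −0.13 for EGFR, beside 0.04, 0.01, −0.03 and −0.01 over all genes. Where genes had several probe sets, their differences from the control scattered around the gene's mean with an SD of 0.51 (spen) to 0.62 (Su(H)). A 2-fold difference of 1 probe set thus lay within 2 such SDs in each mutant.

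**Figure D2:**
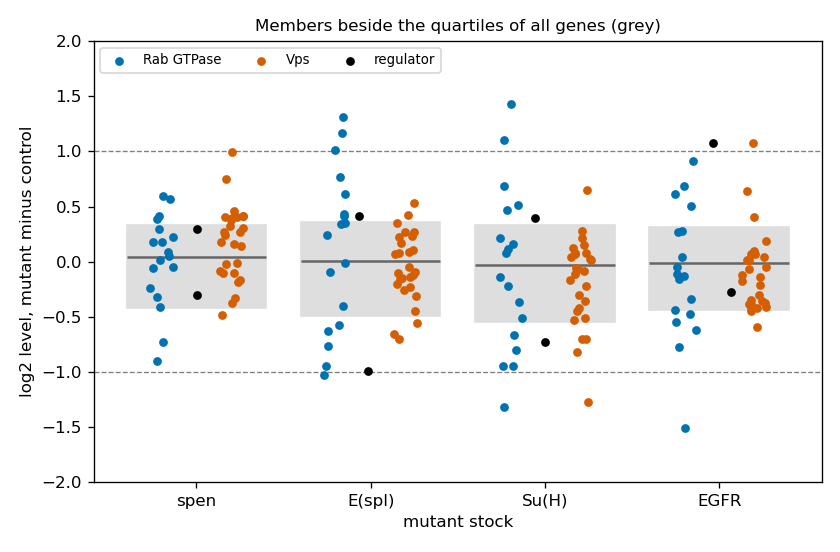
Log2 difference from the control array of the 47 members above the level filter (points: Rab GTPases, Vps genes and regulators) in each mutant. The grey box spans the lower to the upper quartile of all genes above the filter, its line is their median, and dashed lines mark 2-fold. In spen all points lie between them.

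Rab and Vps genes differed in how much they varied. The spread of a gene was its highest minus its lowest level over the 5 arrays. Among genes at or above the filter on every array, its median was 0.80 in the 46 members and 0.79 in all 6783 genes. It was 1.08 in the 17 Rab GTPase genes and 0.65 in the 27 Vps genes. A spread of at least 1 was found in 15 of the 46 members (32.6%) and in 36.8% of all genes. It was found in 9 of the 17 Rabs (52.9%) and in 5 of the 27 Vps genes (18.5%). One array standing at least 1 log2 unit from all the others was seen for Vps24 alone among 46 members (2.17%), against 9.89% of all genes. The 5 steadiest members were Rab10 with a spread of 0.29, Vps50 with 0.30, Vps13D and Vps52 with 0.32 each and Vps33B with 0.35. Vps50 was at 8.10 on the control array and at 8.02, 8.32, 8.17 and 8.19 on spen, E(spl), Su(H) and EGFR. Vps13D was at 8.52, 8.42, 8.69, 8.74 and 8.56 in this order, and Vps52 at 8.55, 8.87, 8.61, 8.56 and 8.56. Vps33B was at 9.06, 9.20, 9.29, 9.13 and 8.93. The widest gap of 1 array from the other 4 among these was 0.25, for Vps52 on spen.

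The arrays on which members peaked were also uneven. Of the 27 Vps genes, 16 had their highest level on the spen array (59.3%, against 30.7% of all genes), and 4 of the 17 Rabs did (23.5%). Of the 17 Rabs, 8 peaked on the E(spl) array (47.1%, against 19.7% of all genes), and 4 of the 27 Vps genes did (14.8%). With renewed quantile normalisation 16 Vps genes (59.3%) peaked on spen and 9 Rabs (52.9%) on E(spl), beside 31.5% and 19.6% of all genes. With median-centred arrays 17 (63.0%) and 9 (52.9%) did, beside 33.0% and 23.9% of all genes. The 8 Rabs that peaked on E(spl) had spreads from 0.29 (Rab10) to 1.31 (Rab9), and those of Rab2, Rab9 and Rab19 were at least 1.

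**Figure D3:**
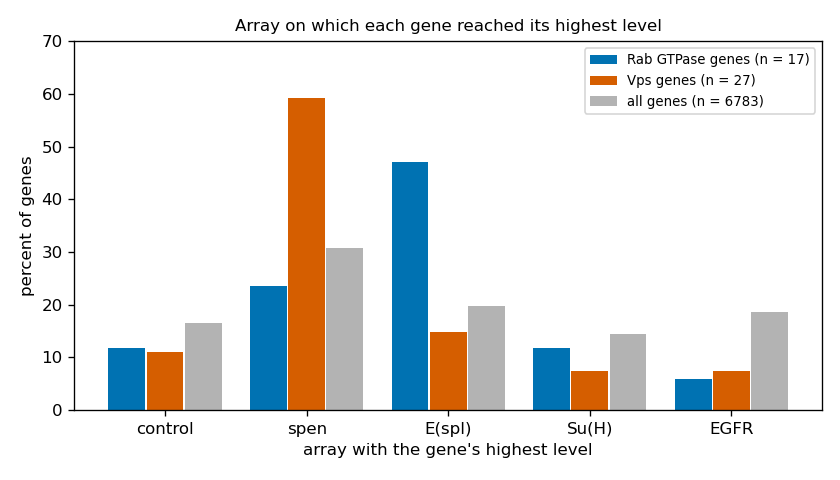
Percent of genes whose highest level fell on each array, for the 17 Rab GTPase genes, the 27 Vps genes and all 6783 genes at or above the filter on all 5 arrays. The Vps bar is highest on spen (59.3%) and the Rab bar on E(spl) (47.1%).

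Among Rabs of the Golgi and the secretory route, all 4 measured genes were above the control in E(spl). Rab2 acts at the Golgi and, in flies, with HOPS in the fusion of autophagosomes and endosomes with lysosomes. It stood at 7.36 on the control array, 7.53 on spen, 8.52 on E(spl), 8.46 on Su(H) and 7.23 on EGFR. The E(spl) and Su(H) arrays stood apart from the other 3, at 2.24-fold and 2.15-fold above the control. Rab10, which in flies directs basement membrane proteins to the basal side of epithelial cells, was nearly level, at 11.32, 11.28, 11.57, 11.44 and 11.28 in the same order of arrays. Rab18, linked to lipid droplets and the endoplasmic reticulum, differed from the control by 0.42 in E(spl) and by −0.44 in EGFR. Rab30, a Golgi Rab, differed by 0.77 in E(spl) and 0.69 in EGFR, and by 0.23 in spen and 0.16 in Su(H).

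The Rabs of endosomes, phagosomes and lysosomes were mostly below the control outside spen. Of 6 genes, 5 were below it in each of the stocks E(spl), Su(H) and EGFR, with medians of −0.51, −0.52 and −0.58, while 5 of 6 were above it in spen with a median of 0.40. The medians of all genes were −0.03 to 0.04. These comparisons share the control array. Rab39 in E(spl) (−0.01) and Rab14 in spen (0.01) lay close to 0, and both changed sign under another scaling, which left 4 of 6 below the control in E(spl).

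Rab35, which in fly cells carries Rac1 and Cdc42 to the plasma membrane during phagocytosis, had the widest spread of all members. Its level was 9.95 on the control array, 10.37 on spen, 9.19 on E(spl), 9.74 on Su(H) and 8.45 on EGFR. EGFR was 2.84-fold below the control. Rab14, which in fly hemocytes takes part in phagosome maturation, stood at 10.44, 10.46, 9.82, 9.64 and 9.67. The control and spen arrays lay together, and the other 3 lay 0.63 to 0.80 lower. Rab21, of early endosomes and integrin traffic, was at 8.60, 9.17, 8.20, 7.93 and 8.26, highest on spen and lowest on Su(H).

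Rab32, the product of the lightoid gene of pigment granules, was at 9.03, 9.63, 8.09, 8.67 and 8.48, so spen exceeded E(spl) by 1.54. Rab39, of late endosomes and lysosomes, differed from the control by −0.94 in Su(H) and −0.62 in EGFR. Rab9, of transport from late endosomes back to the Golgi, was the exception outside spen. It was at 6.97 on the control array, the lowest, and at 7.35, 8.28, 7.44 and 7.48 on spen, E(spl), Su(H) and EGFR. Only E(spl) was past 2-fold, at 2.49-fold above the control.

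The remaining Rabs had no common direction. Rab23, known in flies from the polarity of wing hairs and in mice from Hedgehog signalling, was at 5.19 on the control array, 4.87 on spen, 6.20 on E(spl), 6.62 on Su(H) and 6.11 on EGFR. The control and spen lay low and the other 3 lay 0.91 to 1.43 above the control. RabX1 stood at 11.82, 11.41, 11.24, 10.51 and 11.71, and its Su(H) level was 2.49-fold below the control. Rab40, related to subunits of ubiquitin ligases, was at 6.30, 6.35, 6.20, 5.35 and 6.91, with Su(H) lowest and EGFR highest. Rab19 was lowest in spen, by −0.73 from the control. Rab27, of regulated exocytosis, differed by 0.62 in E(spl) and 0.51 in Su(H). RabX4 and RabX6 were above the control in all 4 mutants, by 0.18 to 0.68.

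Rab9Fb was at 4.82 on the control array and at 3.92, 3.80, 4.32 and 4.35 on spen, E(spl), Su(H) and EGFR. The spen, E(spl) and EGFR levels lay below the highest Bacillus control of their arrays, and the E(spl) level was at least 1.41-fold below the control. The difference of −1.03 between the levels as reported was under 2-fold with both other scalings, at −0.93 and −0.94. A probe set shared by its close relatives Rab9D, Rab9Db, Rab9E and Rab9Fa, which belongs to no single gene, was also highest on the control array, at 5.84, against 4.10 on spen, 3.67 on E(spl), 4.04 on Su(H) and 4.66 on EGFR. In the same direction, all 6 germ line and testis markers were below the control in every mutant, with a mean level of 8.85 on the control array and of 5.82 to 7.39 on the others. The part of such RNA in the Rab9 family values was not tested.

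Of the regulators, Rab3GAP1, the catalytic subunit of the Rab3 GTPase-activating complex, was at 6.23 on the control array, 6.53 on spen, 6.65 on E(spl), 6.63 on Su(H) and 7.31 on EGFR, 2.11-fold above the control. Rab3-GAP was at 9.32, 9.01, 8.32, 8.58 and 9.04 and so lowest on E(spl), 0.99 below the control.

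**Figure D4:**
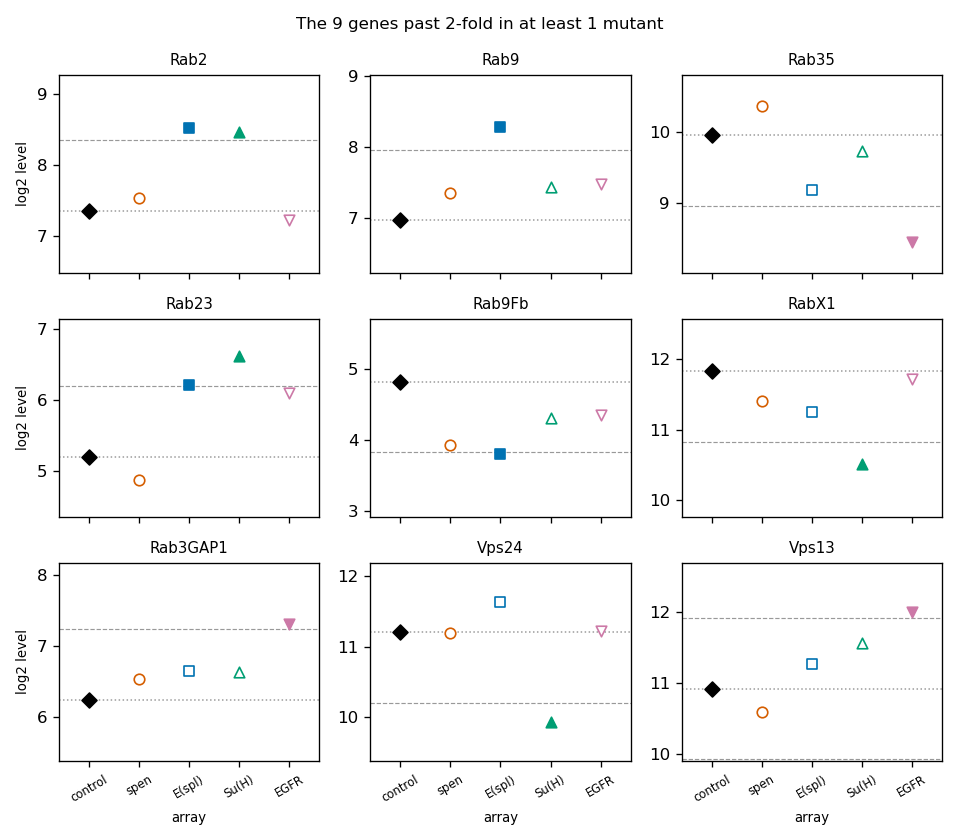
Log2 level on the 5 arrays of the 9 genes past 2-fold from the control in at least 1 mutant. Filled symbols mark the control and the mutants past 2-fold, the dotted line is the control level and dashed lines lie 1 log2 unit from it. The Su(H) level of Vps24 stands 1.25 below the next lowest array.

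The retromer genes were higher in spen and lower in Su(H) in step. Vps26 was at 11.81 on the control array, 12.07 on spen, 11.65 on E(spl), 11.27 on Su(H) and 11.45 on EGFR. Vps35 was at 11.67, 12.07, 11.62, 11.31 and 11.62, and Vps29 at 9.17, 9.58, 8.47, 8.47 and 9.24. All 3 peaked on spen, by 0.27 to 0.41 over the control, and all 3 lay below the control in Su(H), by 0.36 to 0.70. None was past 2-fold from the control, while Vps29 in spen exceeded its E(spl) level by 1.11.

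Genes of ESCRT-I (Vps28, Vps37B) and ESCRT-II (Vps25, Vps36) also peaked on spen, all 4 of 4. Their differences from the control there were 0.75, 0.38, 0.30 and 0.42. Elsewhere they ran from −0.55 (Vps37B in E(spl)) to 0.27 (Vps36 in E(spl)).

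ESCRT-III is the filament that closes the bud, and the ATPase Vps4 takes the filament apart. In Su(H) all 5 genes lay below the control, with a median of −0.51. Vps24 was at 11.21 on the control array, 11.19 on spen, 11.63 on E(spl), 9.93 on Su(H) and 11.22 on EGFR. Su(H) alone stood off, 2.42-fold below the control, and the other 4 arrays kept within 0.44 of each other. The other subunits differed there by less, Vps20 by −0.70, Vps60 by −0.51 and Vps2 by −0.42. The same array had the largest 3′ excess (2.51) and the highest muscle marker level (8.07), whose part in these differences was not tested. Vps4 was at 11.12, 11.54, 10.98, 11.07 and 10.99, with spen alone above the rest. In E(spl) and in EGFR 4 of the 5 genes were below the control, with medians of −0.26 and −0.38, and Vps24 was the exception both times (0.42 and 0.02).

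Genes of HOPS, CORVET and their relatives showed no difference past 2-fold from the control. Vps16A, a core subunit of both tethers, was at 11.16 on the control array, 11.31 on spen, 11.06 on E(spl), 10.98 on Su(H) and 10.81 on EGFR. Vps11 was at 9.32, 8.84, 9.60, 8.51 and 8.73, so E(spl) exceeded Su(H) by 1.09. Vps8, specific to CORVET, was highest on spen (0.40) and Vps39, specific to HOPS, was lowest on EGFR (−0.42). Vps16B (full-of-bacteria) and Vps33B act together in phagosome maturation in fly hemocytes. Vps16B differed by 0.46 in spen and 0.41 in EGFR, whereas Vps33B kept within −0.12 to 0.23 of the control. In EGFR 5 of the 6 genes of this group were below the control, with a median of −0.38.

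GARP and EARP genes were among the steadiest members, except Vps51. Vps50, Vps52 and Vps53 kept within −0.22 to 0.32 of the control. Vps51, shared by GARP and EARP, was at 8.07 on the control array, 9.06 on spen, 8.60 on E(spl), 8.35 on Su(H) and 8.26 on EGFR. The spen difference of 0.99 stood at the threshold and passed it with quantile normalisation or median centring.

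Vps13 proteins carry lipids between membranes, and their genes ran the other way from retromer in spen and Su(H). Vps13 was at 10.92 on the control array, 10.59 on spen, 11.27 on E(spl), 11.57 on Su(H) and 12.00 on EGFR, 2.11-fold above the control. Vps13B differed by 0.64 in EGFR and Vps13D by 0.04. All 3 were below the control in spen, by −0.10 to −0.33, and above it in Su(H), by 0.08 to 0.65. With quantile normalisation Vps13B lay above the control in spen, by 0.09. Vps15, the regulatory kinase of the class III phosphoinositide 3-kinase, kept within −0.23 to 0.24. Vps45, which regulates fusion at early endosomes, was at 9.06, 9.32, 8.95, 8.97 and 8.67, highest on spen and lowest on EGFR.

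**Figure D5:**
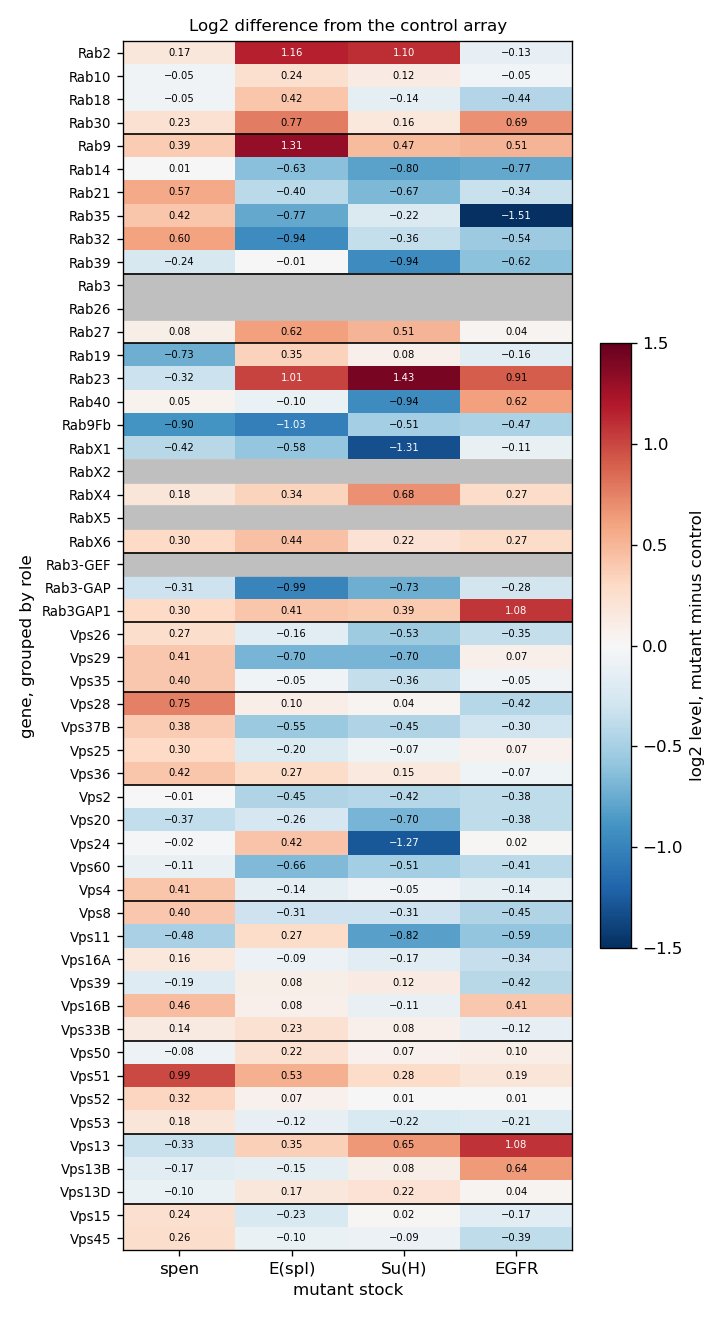
Log2 difference from the control array for each member (rows, grouped by role) in each mutant (columns), with the value printed in each cell. Grey rows did not reach the level filter on any array. Retromer and ESCRT-I and ESCRT-II rows are positive in spen, and the Su(H) value of Vps24 is −1.27.

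Mutants were also set against each other. Su(H) against E(spl), whose genes both act in Notch signalling, gave the lowest share over all genes, with 2 of 46 members past 2-fold (Vps11 and Vps24, both lower in Su(H)), against 6.51% of 7732 genes. EGFR against Su(H) gave 5 members (Vps24, RabX1 and Rab40 higher, Rab2 and Rab35 lower in EGFR), against 11.1% of 7932 genes. EGFR against E(spl) gave Rab2 alone, lower in EGFR, against 12.9% of 7875 genes. Against spen, E(spl) had 5 members past 2-fold (17.4% of genes), Su(H) had 4 (17.1%) and EGFR had 5 (19.5%). Rab23 was higher than in spen in all 3, by 1.23 (EGFR) to 1.75 (Su(H)). Rab35 differed from its spen level by −1.19 in E(spl) and −1.92 in EGFR, and Rab32 by −1.54 and −1.14.

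Other genes of the same pathways were taken from lists. Of 17 measured regulators of the Rab cycle above the filter, 15 lay above the control in spen with a median of 0.35, none past 2-fold. Of all genes 53.7% lay above it and 17.3% were past 2-fold. The GTPase-activating protein TBC1D5, which in human cells acts on RAB7 with retromer, was at 11.02 on the control array, 9.66 on E(spl) and 9.44 on Su(H). Rabex-5, the exchange factor for Rab5, was at 11.49 on the control array and 10.20 on Su(H). In the other direction, wkd, in fly tracheal cells a GTPase-activating protein for Rab35, was at 7.65 on the control array and 8.93 on E(spl). The level of plx, a mean of 2 probe sets, was 5.32 on the control array, 6.87 on Su(H) and 6.38 on EGFR. These were all the genes of the list past 2-fold. Their share of the 17 was 11.8% for E(spl) (21.9% of all genes), 17.6% for Su(H) (21.9%) and 5.88% for EGFR (14.9%). Of 23 Rab effector, Golgi tether and exocyst genes, 19 lay above the control in spen (53.7% of all genes), with a median of 0.30. Of the 22 at or above the filter on all arrays, 14 peaked there (30.7% of all genes). Sec5, an exocyst subunit, was higher by 1.10 in spen and alone past 2-fold there (4.35%, beside 17.3% of all genes). No gene of this list was past 2-fold in the other 3 mutants, beside 21.9% (E(spl)), 21.9% (Su(H)) and 14.9% (EGFR) of all genes.

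Of 10 ESCRT genes without a Vps symbol, 8 lay below the control in Su(H), with a median of −0.44. Of all genes 47.4% lay above the control there, with a median of −0.03. Stam, of ESCRT-0, differed by −1.25 and CHMP2B, of ESCRT-III, by −0.83. Stam alone was past 2-fold there (10%, beside 21.9% of all genes). Of 10 genes of HOPS, CORVET and phosphoinositide control without a Vps symbol, 1 was past 2-fold, Uvrag in E(spl) at −1.11 (10%, beside 21.9% of all genes). The HOPS subunit gene car differed by −0.95 there. Among 14 SNARE genes, Ykt6, a SNARE of Golgi and autophagosome fusion, was higher in every mutant, by 1.01 (E(spl)) to 1.45 (Su(H)), while alphaSnap, which recycles SNAREs, differed by −1.45 in EGFR. The control array was thus the lowest for Ykt6, and all 4 differences subtract it. Rop, from the same SNARE list, differed by −1.29 in E(spl), −0.98 in Su(H), −0.89 in EGFR and 0.34 in spen. The shares of the 14 past 2-fold were 7.14% for spen (17.3% of all genes) and 14.3% for E(spl) (21.9%). They were 7.14% for Su(H) (21.9%) and 14.3% for EGFR (14.9%).

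Of 27 genes for clathrin, adaptors, dynamin and sorting nexins, 22 lay above the control in spen with a median of 0.17. Of all genes 53.7% did. With quantile normalisation 18 of the 27 did, with a median of 0.11. The sorting nexin gene Snx17 was higher by 1.27 in E(spl) and 1.11 in Su(H). Of the small GTPases outside the Rab family, Arl8, which moves lysosomes, was at 9.21 on the control array, 9.52 on spen, 8.99 on E(spl), 8.11 on Su(H) and 8.23 on EGFR. Lysosome and late endosome genes were mostly below the control outside spen. Of 19 above the filter, 17 were lower in Su(H) with a median of −0.34, and 4 of them were past 2-fold (21.1%, beside 21.9% of all genes). In EGFR 17 of 20 were lower with a median of −0.32, and 2 were past 2-fold (beside 14.9% of all genes). In E(spl) 13 of 19 were lower with a median of −0.27, and 2 were past 2-fold (10.5%, beside 21.9%). In spen 11 of 19 were higher with a median of 0.08, and none was past 2-fold (beside 17.3%). The protease gene cathD was at 12.69 on the control array, 13.47 on spen, 12.42 on E(spl), 11.31 on Su(H) and 11.93 on EGFR. Cln7, a lysosomal membrane protein gene, was at 10.17 on the control array, 10.97 on spen and 8.74 to 8.91 on the other 3. Lerp, the sorting receptor for lysosomal enzymes, was at 6.59 on the control array and 4.14 on Su(H), not above the Bacillus controls of that array, so it was lower there by at least 2.32.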

How the data were processed

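Hemocyte RNA of 5 genotypes was measured on 1 single-colour Affymetrix array each. The authors deposited 1 table of 18952 probe sets with values of 2.54 to 14.74, used as log2 levels because they fit that scale. Per the submitters' processing notes RMA and GCOS were used, with role, version and settings not given in the sources used here. RMA shares signal between arrays and can remove a shift of most genes. Without replicates, the number of arrays limits the precision.

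Control probe sets (183) were left out. Genes were named from the platform annotation where it gave 1 gene (13647 probe sets, 402 had several), with probe sets of 1 gene averaged. All 52 members kept their symbol in the Release 6 gene table, used for names only. Control levels were subtracted from mutant levels, and a gene counted as past 2-fold only if it reached the filter of 4.5 on 1 of both arrays. Below the highest of 27 Bacillus control probe sets, a difference is a lower bound. Python 3.11.15, pandas 2.3.3 and numpy 2.4.6 were used, and the counting was tested on simulated data. Sequences and promoter motifs were not used here.

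Members and lists were chosen with earlier results of these data known. Values on all 5 arrays were to be given for members past 2-fold, for a set of endosome and phagosome genes and for the 5 steadiest members. Rab3-GAP, Rab32, Rab40, Vps11, Vps29 and Vps51 were added to these after their values were seen. From other lists up to 4 genes with the largest differences could be named in each comparison. After the lists were written, 8 entries were left out because they have no role of their list, of which 5 were measured. Alternatives were 2 level filters, 2 scalings, another gene value, fewer probe sets, fewer members, another reference and a lower fold.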

Additional observations from a re-analysis of the deposited data

How the results depend on the processing

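No paired analysis was possible because each genotype had 1 array, and no array could be left out within a group. Counts of members past 2-fold are given as spen, E(spl), Su(H) and EGFR. They were 0, 4, 4 and 3 as reported. Removing the level filter, keeping only genes at 6 or more, the probe set with the highest mean level, leaving out _s_at and _x_at probe sets, or leaving out the regulator symbols kept each count within 1.5 times. Quantile normalisation and median centring gave 1 in spen (Vps51, higher in both), and under both Rab9Fb in E(spl) was no longer past 2-fold. Quantile normalisation added Rab27 (1.02) and Rab3-GAP (−1.07) in E(spl) and Rab23 (1.06) in EGFR, giving 5 and 4. With the other 3 mutants averaged as reference, the counts were 5 (Rab21, Rab32 and Rab35 higher, Rab23 and Vps13 lower), 0, 2 (Rab40 and Vps24 lower) and 1 (Rab35, lower). With that reference, 499 of all genes were past 2-fold higher and 653 lower in spen. The numbers were 304 and 249 for E(spl), 346 and 154 for Su(H), and 502 and 283 for EGFR. At 1.5-fold, chosen after seeing the data, the counts of members were 5, 12, 14 and 10. The median difference of the members in spen was 0.29 against the other 3 mutants and 0.17 against the control, and all other medians moved by less than 0.1. Of 188 differences of members above the filter, 11 changed sign under a scaling, none larger than 0.17 in size as reported. Quantile normalisation moved the share of higher genes among all genes past 2-fold in spen from 15.6% to 28.8%. Of 536 single-gene values over 17 named members and these alternatives, 515 moved by less than the SD between probe sets of 1 gene, and the other 21 moved against the other mutants as reference. The remaining members were not in this count. Among them, quantile normalisation moved Rab27 in spen from 0.08 to 0.61 and Vps16B in spen from 0.46 to 0.93. Members rest on 1 probe set each except Rab26, so no second probe set checks them, and a level under its own array's highest Bacillus control (4.28 to 4.78) cannot be told from background.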
